A study of Brassica napus with 11 samples.

Results

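The 4 transcripts described here, of the *Brassica napus* seed stalk, had each been picked as an epidermal cell wall gene and were followed across all 11 RNA-seq libraries of the series. They are BnaA05g25150D, matched by the study to the Arabidopsis gene *PECTIN METHYLESTERASE 3* (*PME3*), BnaA06g27710D and BnaC07g29330D, both matched to the *DUF642* gene AT5G25460, and BnaC09g09070D, matched to AT2G16630 of the pollen Ole e 1 allergen and extensin family. They are 4 of the 97902 transcripts in the expression table, and all 4 were found there by name. All 4 stand in the list of epidermis-enriched transcripts that the study drew from these same libraries. Their difference between the tissues is therefore given as a description, with no test.

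The funiculus is the stalk that joins the developing seed to the silique and carries nutrients to it. All plants were of cultivar Topaz, line DH4079, with no treatment or transgene. Siliques were taken 7 days after pollination, when the embryo is globular. The epidermis gave 3 libraries, the cortex 2, the vasculature 3 (each cut from sections by laser microdissection) and the whole funiculus (WF) 3. Each replicate pooled dissected pieces of several funiculi and plants, so that no library stands for 1 plant. The RNA was scarce and was amplified before sequencing, and its integrity was lowest in the vasculature. In comparisons with the vasculature, tissue and RNA quality cannot be told apart. Fewer cells of a type and less RNA per cell cannot be told apart either. Levels are FPKM (fragments counted on a transcript, scaled for its length and for the mapped reads of the library) as the authors deposited them. WF means are over WF1 and WF3, as in the study, and WF2 is given by itself.

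Pectin is the gel-forming polysaccharide of the primary wall and of the layer that glues plant cells together. Its main chain, homogalacturonan, is secreted with methyl esters, and pectin methylesterases (PMEs) remove these esters in the wall. This lets calcium bridge the chains or lets pectin-degrading enzymes cut them, while PME inhibitors hold the enzymes back. DUF642 proteins are a plant-specific family of secreted wall proteins, and some Arabidopsis members bind the catalytic part of PME3 in vitro. Extensins are hydroxyproline-rich glycoproteins that cross-link into a network in the wall, and the Ole e 1 family shares a domain with a pollen allergen of olive. In Arabidopsis, AT2G16630 encodes FOCL1, a wall protein needed to form the cuticular ledge of stomata.

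Marker transcripts were highest in the tissues they are named for. The 6 epidermis markers (such as the lipid transfer protein gene *LTP2* and the cuticle regulator gene *MYB16*) summed to 1711 to 3379 FPKM in the epidermis, 175 to 622 FPKM in the cortex and 1.16 to 14.3 FPKM in the vasculature. The 8 markers of xylem and phloem summed to 633 to 795 FPKM in the vasculature, 19.7 to 38.3 FPKM in the cortex and 2.25 to 5.79 FPKM in the epidermis, where 4 of the 8 were at 0 in each library. The study had chosen most of these markers on the same libraries. Read depth, recovered from the spacing of the low values, ran from 0.340 to 0.838 of that of WF3 in the tissue libraries and was 0.186 in WF2.

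*PME3* (BnaA05g25150D), the pectin methylesterase of the group, was the most abundant of the 4 in the epidermis on the FPKM scale, which is per transcript length. Its level was 47.5, 36.9 and 34.2 FPKM in epidermis 1, 2 and 3, 5.82 and 9.20 FPKM in cortex 1 and 2, and 1.01, 2.70 and 0.0966 FPKM in vasculature 1, 2 and 3. The 3 epidermis libraries lay within 1.39-fold of each other and above every cortex and vasculature library, and both cortex libraries lay above every vasculature library. The mean was 39.5 ± 7.02 FPKM (SD, n = 3) in the epidermis, 7.51 ± 2.39 FPKM (SD, n = 2) in the cortex and 1.27 ± 1.32 FPKM (SD, n = 3) in the vasculature. The epidermis mean was 5.27 times that of the cortex and 31.2 times that of the vasculature, and the second ratio was 71.7 without vasculature 2. Vasculature 2 was the highest library of its tissue, and leaving out vasculature 1 or 3 instead lowered that ratio. In the WF the level was 18.8 and 9.23 FPKM, between the epidermis and the cortex. These values rest on 155 to 209 sequenced fragments in each epidermis library. Cortex 1 and 2 had 27 and 84 fragments, and vasculature 1, 2 and 3 had 7, 16 and 1. The exact Poisson 95% interval was 41.3 to 54.4 FPKM in epidermis 1 and 29.7 to 39.2 FPKM in epidermis 3, and such intervals cover counting error only, since amplified reads are not independent molecules.

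The first *DUF642* gene (BnaA06g27710D) is matched to the Arabidopsis gene also known as *DGR2*. It was at 22.0, 19.04 and 29.3 FPKM in epidermis 1, 2 and 3, at 2.98 and 5.72 FPKM in cortex 1 and 2, and at 0.884, 5.70 and 0.148 FPKM in vasculature 1, 2 and 3. Again every epidermis library was above every other tissue library, but vasculature 2 reached the level of cortex 2, so that cortex and vasculature overlapped. The mean was 23.4 ± 5.28 FPKM (SD, n = 3) in the epidermis, 4.35 ± 1.94 FPKM (SD, n = 2) in the cortex and 2.24 ± 3.01 FPKM (SD, n = 3) in the vasculature. The epidermis mean was 5.39 times the cortex mean and 10.4 times the vasculature mean, and the latter ratio was 45.4 without vasculature 2, where 22 fragments were counted against 4 and 1 in the other 2 vasculature libraries. Leaving out vasculature 1 or 3 instead lowered the ratio to the vasculature. The level was 7.21 FPKM in both WF1 and WF3.

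The second *DUF642* gene (BnaC07g29330D) is matched to the same Arabidopsis gene and lies on a C genome chromosome, whereas the first lies on an A genome chromosome. Its level was 33.6, 15.0 and 24.05 FPKM in epidermis 1, 2 and 3, 2.16 and 5.497 FPKM in cortex 1 and 2, and 0.825, 2.18 and 0.277 FPKM in vasculature 1, 2 and 3. The epidermis stood above both other tissues in every library, while vasculature 2 was level with cortex 1. The mean was 24.2 ± 9.26 FPKM (SD, n = 3) in the epidermis, 3.83 ± 2.36 FPKM (SD, n = 2) in the cortex and 1.09 ± 0.977 FPKM (SD, n = 3) in the vasculature. The epidermis mean was 6.32 times the cortex mean and 22.2 times the vasculature mean. The cortex ratio rested on 7 fragments in cortex 1 and 35 in cortex 2, and it was 11.2 without cortex 2 and 4.41 without cortex 1, while the vasculature ratio was 43.9 without vasculature 2. The vasculature ratio was lower than the full one without vasculature 1 or 3. The level was 7.80 FPKM in WF1 and 10.2 FPKM in WF3.

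The 2 *DUF642* genes were thus at nearly the same mean level in the epidermis and in the cortex, and neither was the higher one throughout. The level of the A genome copy divided by that of the C genome copy was 0.655, 1.27 and 1.22 in epidermis 1, 2 and 3. It was 1.38 and 1.04 in cortex 1 and 2, 1.07, 2.62 and 0.536 in vasculature 1, 2 and 3, and 0.924 and 0.706 in WF1 and WF3. The A genome copy was the higher one in epidermis 2 and 3 and the C genome copy in epidermis 1, where the counting intervals overlapped narrowly (16.9 to 28.1 FPKM for the A genome copy and 27.4 to 40.7 FPKM for the C genome copy). Reads of near-identical copies can be placed on either, and the sequences of the 2 transcripts were not used here, so that the split between the copies is uncertain.

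The Ole e 1 and extensin family gene (BnaC09g09070D) was the only one of the 4 at 0 FPKM in all vasculature libraries. Its level was 26.1, 19.3 and 14.3 FPKM in epidermis 1, 2 and 3 and 2.84 and 4.13 FPKM in cortex 1 and 2. The groups did not overlap. The mean was 19.9 ± 5.96 FPKM (SD, n = 3) in the epidermis and 3.49 ± 0.909 FPKM (SD, n = 2) in the cortex, a ratio of 5.71. A count of 0 allows up to 3 fragments, which correspond to 0.814, 0.953 and 0.546 FPKM in vasculature 1, 2 and 3. Against the mean of these 3 floors, taken per library, the observed epidermis mean was 25.8 times and the observed cortex mean 4.52 times as high. These ratios leave out the counting error of the epidermis and cortex means. The level was 7.84 FPKM in WF1 and 6.87 FPKM in WF3.

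**Figure D1:**
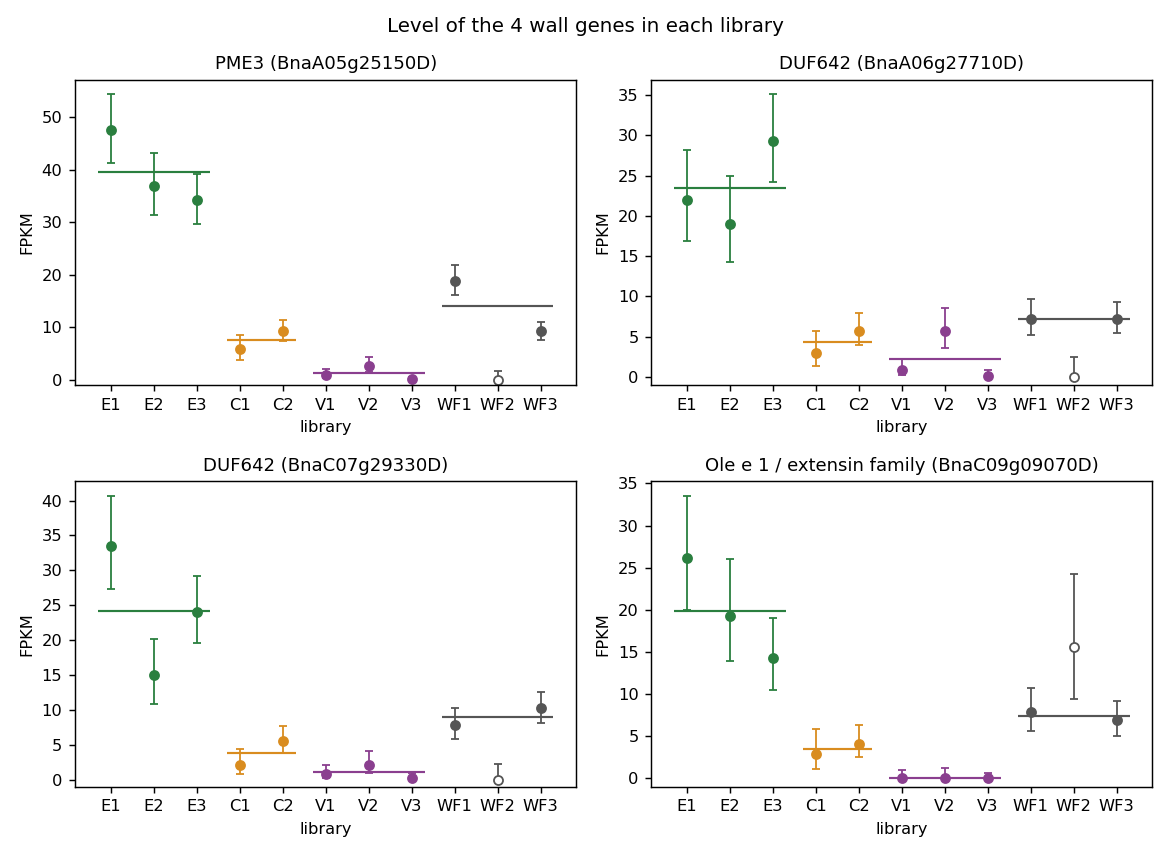
Each panel plots 1 gene, with the libraries of epidermis (E), cortex (C), vasculature (V) and whole funiculus (WF) on the x axis and FPKM on the y axis. Points are libraries, bars are exact Poisson 95% intervals of the fragment count, horizontal lines are group means, and the open point is WF2, which no mean includes. In all 4 panels the 3 epidermis points lie above every cortex and vasculature point, and in WF2 BnaC09g09070D is at 15.6 FPKM while the other 3 genes are at 0.

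All 4 genes followed the order epidermis, WF, cortex and vasculature in their means. Between the cortex and the vasculature the 2 *DUF642* genes overlapped, and between the WF and the cortex *PME3* was at 9.23 FPKM in WF3 and 9.20 FPKM in cortex 2. Every epidermis library above every other tissue library held for 4 of 4 genes and for 5.12% of the 45300 transcripts that averaged 1 FPKM or more in some tissue. An epidermis mean of at least 5 times both other tissue means, which was part of the study's selection, held for the same 4 genes and for 2.81% of those transcripts. The choice of the genes on these libraries fixed the second count and favoured the first, so neither count says anything more about the genes. The 4 ratios to the cortex, 5.27 to 6.32, lie just inside that limit and were 4.10 to 4.82 without cortex 1. Just outside it stood the pectin methylesterase gene *PME44* (BnaA01g03620D), with an epidermis mean 3.85 times its cortex mean.

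In the epidermis the 4 genes were above 91.3 to 96.3% of the 45300 transcripts, in the cortex above 52.7 to 74.3%, and in the vasculature above 0 to 36.8%. Both cortex libraries were above every vasculature library for *PME3* and BnaC09g09070D, and for 18.4% of the 45300 transcripts. The WF mean as a share of the epidermis mean was 35.4% for *PME3*, 30.8% and 37.2% for the *DUF642* genes and 37.0% for BnaC09g09070D. That of *PME3* averages 18.8 FPKM in WF1 and 9.23 FPKM in WF3. Its likeness to the other shares and its place among those below are therefore uncertain. Among 280 other transcripts that averaged 10 FPKM or more in the epidermis and 5 times both other tissues, the median share was 13.5%, with quartiles of 5.12 and 28.5%. It was 5.38% in the 134 of them with over 80% of the summed epidermis level in 1 epidermis library and 26.5% (quartiles 18.5 and 35.9%) in the other 146, so that all 4 genes lay above the median of the latter and 2 of them above its upper quartile. Shares of the same size were found for *PME44* (38.8%), the galacturonosyltransferase gene BnaA02g02630D (37.3%) and the Ole e 1 and extensin family gene BnaC04g16900D (30.8%).

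The epidermis libraries held unequal amounts of pollen transcripts, whose values are given here beside those of the 4 genes. The 16 pollen and pollen tube transcripts listed here, all from the epidermis-enriched list, summed to 1170 FPKM in epidermis 1, 161 FPKM in epidermis 2 and 4.71 FPKM in epidermis 3. They summed to 26.7 and 20.2 FPKM in the cortex, 37.9, 155 and 1.84 FPKM in vasculature 1, 2 and 3, 94.3 FPKM in WF1, 70.0 FPKM in WF2 and 0.839 FPKM in WF3. For the 4 genes, the highest epidermis library held 40.0 to 46.2% of the level summed over the 3 libraries, and the highest was 1.39 to 2.23 times the lowest. Epidermis 3, where 7 of the 16 pollen transcripts were at 0, had 34.2, 29.3, 24.05 and 14.3 FPKM of *PME3*, the 2 *DUF642* genes and BnaC09g09070D. In vasculature 2, the vasculature library with the highest pollen sum, the 3 genes detected in that tissue were also at their highest vasculature level, and the part of the pollen transcripts in this was not tested.

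Of 18 other wall transcripts in the epidermis-enriched list, 13 had over 80% of their summed epidermis level in 1 library, which was epidermis 1 for 11 of them. Among the 280 other transcripts named above it was 134 (47.9%). Highest in mean were the arabinogalactan protein gene *AGP23* (BnaA03g19650D; 302, 33.0 and 1.26 FPKM in epidermis 1, 2 and 3), the pectate lyase gene BnaCnng05770D (111, 5.39 and 0.929 FPKM), the Ole e 1 and extensin family gene BnaC04g16900D (34.8, 17.2 and 64.6 FPKM) and the pectin lyase-like gene BnaC07g49180D (76.3, 0.332 and 0.458 FPKM). The third of these 4 was the exception in that epidermis 3 was its highest library. All 3 PME and PME inhibitor family transcripts of that list had 90.9 to 97.9% of their summed epidermis level in epidermis 1. Of these 18, 9 belong to the 16 pollen transcripts.

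**Figure D2:**
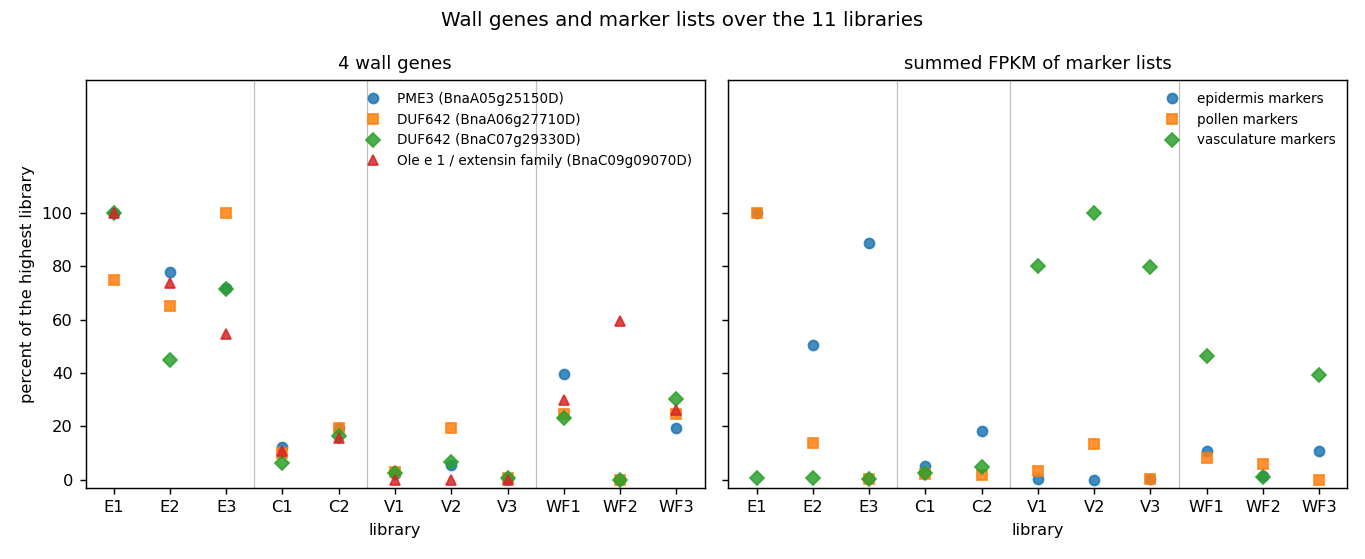
Both panels give the libraries on the x axis and the level as a percent of the highest library on the y axis, for the 4 genes (left) and for the summed FPKM of 6 epidermis, 16 pollen and 8 vasculature markers (right, where *LTP2* makes up most of the epidermis sum). The 4 genes are high in all 3 epidermis libraries, whereas the pollen sum is 1170 FPKM in epidermis 1 and 4.71 FPKM in epidermis 3.

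Other copies of the same families show how far this pattern is shared. The annotation held here covers the enriched lists and, apart from them, transcripts of chromosome A01 and the start of chromosome A02. The latter were not chosen by tissue, and they could be tested. They include 41 wall genes, of which 39 averaged 1 FPKM or more in some tissue. The test was limma on log2(FPKM + 1) over 45300 transcripts and 8 tissue libraries, with Benjamini-Hochberg adjustment over all of them and a threshold of 0.05.

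A second copy of *PME3* (BnaA01g29470D) did not show the epidermal pattern. It was at 93.3, 97.6 and 72.5 FPKM in epidermis 1, 2 and 3, 74.6 and 44.3 FPKM in the cortex, and 76.4, 97.8 and 52.4 FPKM in vasculature 1, 2 and 3. All 3 groups overlapped. The fitted log2 difference of epidermis and vasculature was 0.25 ± 0.34 (SE; limma adjusted p = 0.690), and that of epidermis and cortex 0.59 ± 0.38 (SE; limma adjusted p = 0.649). Its epidermis mean was 87.8 FPKM, against 39.5 FPKM for BnaA05g25150D, and its vasculature mean 75.5 FPKM, against 1.27 FPKM.

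*PME44* (BnaA01g03620D), another pectin methylesterase gene, was close to the 4 genes in pattern although it was not chosen by tissue. Its level was 52.8, 65.2 and 59.4 FPKM in epidermis 1, 2 and 3, 17.7 and 12.9 FPKM in the cortex, and 0, 0.448 and 0 FPKM in vasculature 1, 2 and 3. It was higher in the epidermis than in the vasculature by 5.73 ± 0.28 on the log2(FPKM + 1) scale (SE; limma adjusted p = 1.74e-05), and in the cortex than in the vasculature by 3.84 ± 0.31 (SE; limma adjusted p = 0.00037). Since it is near 0 in the vasculature, the sizes of both depend on the added 1 FPKM. The log2 difference of epidermis and cortex was 1.89 ± 0.31 (SE; limma adjusted p = 0.0568) and missed the threshold, though every epidermis library was above both cortex libraries.

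The 2 tested *DUF642* transcripts were both higher in the epidermis than in the vasculature. BnaA01g04550D, the most abundant DUF642 transcript held here, was at 136, 133 and 243 FPKM in epidermis 1, 2 and 3, 67.4 and 116 FPKM in the cortex, and 33.5, 12.0 and 18.04 FPKM in vasculature 1, 2 and 3. Every epidermis library was above both cortex libraries and these above every vasculature library. The log2 difference was 3.01 ± 0.44 between epidermis and vasculature (SE; limma adjusted p = 0.0018), 2.13 ± 0.49 between cortex and vasculature (SE; limma adjusted p = 0.027) and 0.88 ± 0.49 between epidermis and cortex (SE; limma adjusted p = 0.584). BnaA02g01000D was low, at 3.82, 1.33 and 1.15 FPKM in the epidermis, 0.905 and 0.307 FPKM in the cortex and 0 FPKM in the vasculature, and its epidermis and vasculature differed by 1.53 ± 0.39 (SE; limma adjusted p = 0.0297). That call was lost on leaving out epidermis 1, epidermis 2 or any vasculature library. A DUF642 transcript of the epidermis-enriched list, BnaC02g03800D, is matched to AT5G11420, whose protein binds PME3 in vitro in Arabidopsis. It was at 18.1, 4.995 and 8.498 FPKM in epidermis 1, 2 and 3, 2.11 and 1.07 FPKM in the cortex and 0 FPKM in all vasculature libraries. Of these 5 DUF642 transcripts, 3 come from a list chosen for the epidermis. The other 2 also had their highest mean there, but neither passed between epidermis and cortex (limma adjusted p = 0.584 and 0.535). The share of all transcripts with their highest mean in the epidermis was not counted.

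The Ole e 1 and extensin family transcripts held here were highest in different tissues. Most come from the enriched lists, so that their tissue was fixed by the choice. BnaC09g09070D, BnaC04g16900D (34.8, 17.2 and 64.6 FPKM in the epidermis, 0.623 and 5.38 FPKM in the cortex, 0 FPKM in the vasculature) and BnaC09g52000D (55.7, 0.649 and 0 FPKM in the epidermis) belong to the epidermis-enriched list, and the last of them was high in epidermis 1 alone. BnaA02g02790D, which was not chosen by tissue, stayed at or below 2.11 FPKM in all tissue libraries, and none of its 3 comparisons passed the test (limma adjusted p = 0.223 for epidermis against vasculature). Another such transcript, BnaA02g01430D, was highest in the cortex. It was at 9.38, 14.5 and 19.4 FPKM in epidermis 1, 2 and 3, 90.2 and 76.6 FPKM in the cortex and 2.83, 3.31 and 5.32 FPKM in the vasculature. It was higher in the cortex than in the vasculature by 4.16 ± 0.37 on the log2 scale (SE; limma adjusted p = 0.000475) and in the epidermis than in the vasculature by 1.66 ± 0.34 (SE; limma adjusted p = 0.0101). The difference of epidermis and cortex, -2.50 ± 0.37 (SE; limma adjusted p = 0.0503), lay on the edge of the threshold. BnaA10g20160D and BnaC02g04510D, matched to the same Arabidopsis gene and taken from the cortex-enriched list, had cortex means of 51.8 and 65.6 FPKM against epidermis means of 6.04 and 10.6 FPKM. The 4 extensin-like transcripts of that list (BnaA06g38220D, BnaA08g24920D, BnaC05g49400D and BnaC08g15350D) had cortex means of 396 to 883 FPKM, epidermis means of 68.2 to 166 FPKM and vasculature means of 2.87 to 55.0 FPKM. *EXTENSIN 3* (BnaA07g37340D), which encodes a classical extensin needed for the new wall of dividing cells in Arabidopsis, comes from the vasculature-enriched list. It was at 353, 134 and 507 FPKM in the vasculature and at 1.13 to 4.16 FPKM in the epidermis.

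**Figure D3:**
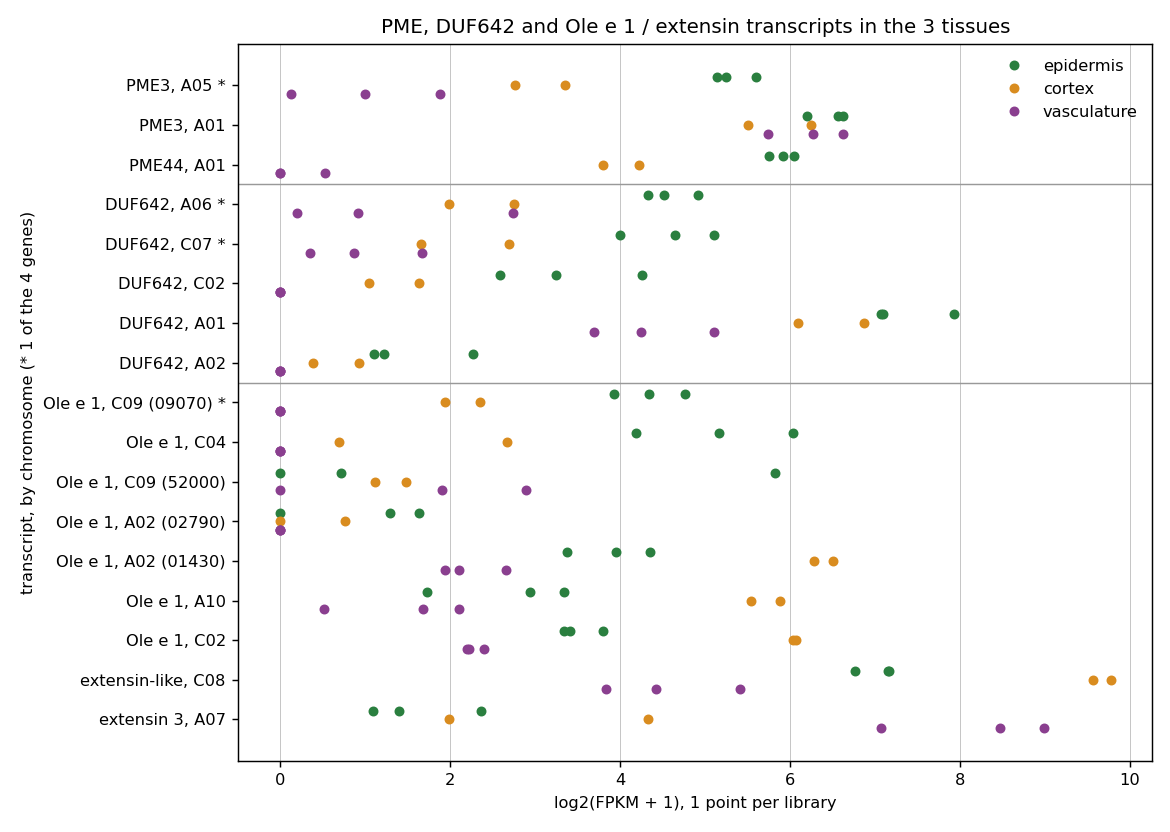
Each row is a transcript, each point a library, and the x axis is log2(FPKM + 1), with the 4 genes marked by a star and the families separated by lines. The A01 copy of *PME3* lies at 44.3 to 97.8 FPKM in all tissues. Every DUF642 transcript, most of them from a list chosen for it, has its highest mean in the epidermis. The Ole e 1 and extensin transcripts, most of them from lists chosen by tissue, are highest in different tissues (1 of 4 extensin-like transcripts is drawn).

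Over all 39 tested wall genes that were not chosen by tissue, the comparison of epidermis against vasculature called 11 higher and 4 lower, beside 6.42% higher and 9.18% lower among all 45300 transcripts. Their median log2 difference was 0.45, against -0.06 over all transcripts. The cortex against vasculature comparison gave 11 higher and 3 lower, beside 4.25% and 5.73% of all transcripts, with a median of 0.48 against -0.05. These 2 comparisons share the vasculature libraries. Between epidermis and cortex limma called none of the 39, beside 0.0883% higher and 0.106% lower among all transcripts. At an unadjusted p under 0.05, 3 of the 39 were higher and 5 lower, beside 2087 higher and 2669 lower of all 45300. In simulated data this comparison called 14 of 50 changes of 4-fold, so smaller differences can be missed.

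Among the enzymes that build or modify pectin, *GALACTURONOSYLTRANSFERASE 14* (BnaA02g02630D), of the family that makes homogalacturonan, was at 40.5, 25.1 and 26.2 FPKM in epidermis 1, 2 and 3, 9.41 and 6.75 FPKM in the cortex and 1.77, 3.21 and 2.38 FPKM in the vasculature. The 3 tissues did not overlap, in the same order as for the 4 genes. It was higher in the epidermis than in the vasculature by 3.18 ± 0.31 on the log2 scale (SE; limma adjusted p = 0.000201) and in the cortex than in the vasculature by 1.40 ± 0.34 (SE; limma adjusted p = 0.0351). The pectin lyase-like gene BnaA01g13460D was higher in the epidermis than in the vasculature by 2.53 ± 0.39 (SE; limma adjusted p = 0.00242), and another, BnaA01g13130D, was higher in the cortex than in the vasculature by 2.32 ± 0.52 (SE; limma adjusted p = 0.0244). The other 5 of these 8 genes, 2 pectin acetylesterase genes among them, passed no comparison.

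Of the 9 PME and PME inhibitor family genes, *PME44* was the one called higher in the epidermis. BnaA01g20160D was lower in the epidermis than in the vasculature by 1.27 on the log2 scale (limma adjusted p = 0.0485), at 0 FPKM in all epidermis and cortex libraries and 1.14, 2.68 and 0.768 FPKM in the vasculature. BnaA01g27350D was higher in the cortex (1.11 and 2.26 FPKM) than in the vasculature, where it was at 0 FPKM (limma adjusted p = 0.0466). Both are low transcripts, and each call was lost on leaving out any of several libraries. BnaA01g14010D was at 84.6, 0 and 0.900 FPKM in epidermis 1, 2 and 3, the pattern of the pollen transcripts, and passed no comparison.

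Among the other wall genes, 2 genes of cellulose synthesis in the primary wall, *CELLULOSE SYNTHASE 1* (BnaA01g04600D) and *CELLULOSE SYNTHASE A2* (BnaA01g05450D), were higher than in the vasculature both in the epidermis (log2 differences 2.32 and 2.71) and in the cortex (1.72 and 2.82). So was the xyloglucan-modifying gene *XTH24* (BnaA01g06750D), by 3.75 in the epidermis and 2.70 in the cortex, and *FASCICLIN-LIKE ARABINOGALACTAN 2* (BnaA01g20560D), by 1.79 and 2.07. *PROLINE-RICH PROTEIN 2* (BnaA01g05170D) was higher than in the vasculature in the epidermis, by 2.04, and the glycosyl hydrolase gene *GH9B18* (BnaA01g05270D) in the cortex, by 1.68. *EXPANSIN-LIKE B1* (BnaA01g18000D), *ARABINOGALACTAN PROTEIN 18* (BnaA01g00450D) and the COBRA-like gene BnaA02g02700D had the reverse pattern, lower than in the vasculature in the epidermis (by log2 differences of -5.55, -3.33 and -2.77) and in the cortex (-3.90, -3.09 and -2.55). Limma adjusted p-values of these calls ran from 0.000476 to 0.0416. The epidermis calls of *FASCICLIN-LIKE ARABINOGALACTAN 2* and *PROLINE-RICH PROTEIN 2* were each lost on leaving out 1 of several libraries. Of the 14 cortex against vasculature calls, that of *GH9B18* was lost without cortex 1 and 8 were lost on leaving out 1 of several libraries, those of BnaA01g04550D, *GALACTURONOSYLTRANSFERASE 14*, BnaA01g13130D, BnaA01g27350D, *XTH24*, *FASCICLIN-LIKE ARABINOGALACTAN 2*, *EXPANSIN-LIKE B1* and *ARABINOGALACTAN PROTEIN 18*. The call of *EXPANSIN-LIKE B1* in this comparison was also lost with a pseudocount of 0.5 and without a filter.

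**Figure D4:**
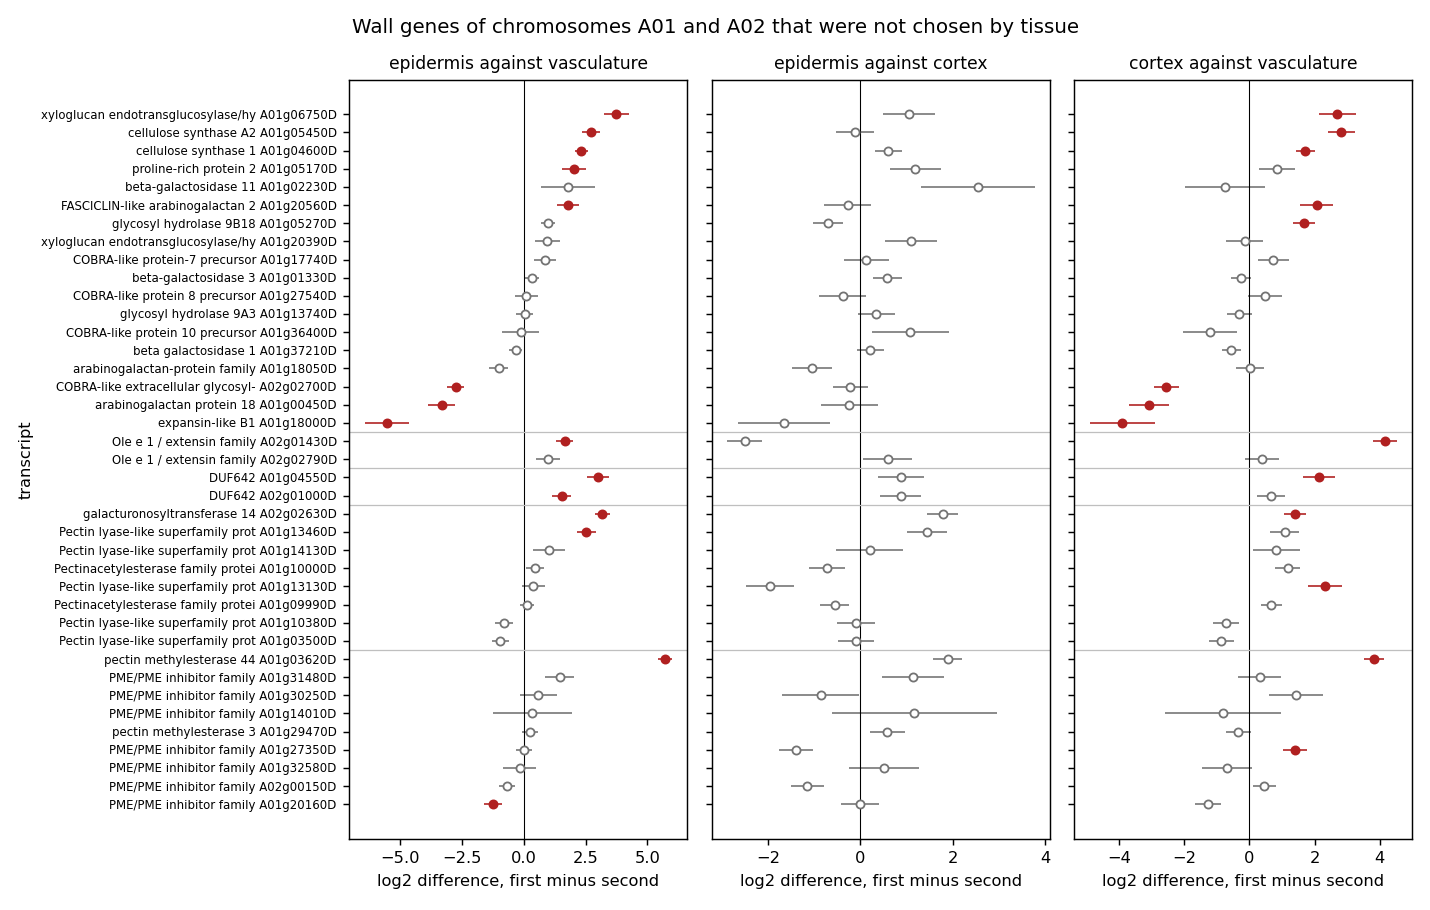
Each row is 1 of the 39 wall genes of chromosomes A01 and A02, grouped by family, and each panel gives the fitted log2 difference of the first minus the second tissue with its standard error. Filled red points passed an adjusted p of 0.05 in limma. In the left panel *PME44*, at 5.73, is the highest and *EXPANSIN-LIKE B1*, at -5.55, the lowest, and the middle panel has no filled point.

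To see which transcripts shared the profile of each gene, log2(FPKM + 1) was centred on its mean over 10 libraries (WF2 left out), and transcripts were ranked by the root mean square difference of the centred values, among 12798 candidates that averaged 10 FPKM or more in some tissue. All 10 libraries enter both sides, and no test applies. Nearest to *PME3* were BnaC01g06040D (0.38), BnaA07g24600D (0.42) and BnaA05g02030D (0.42), where the median candidate was at 1.90. The most abundant of them, BnaC01g06040D, had means of 206, 58.2 and 9.02 FPKM in epidermis, cortex and vasculature. Nearest to the *DUF642* gene BnaA06g27710D was the other one, BnaC07g29330D (0.44), followed by BnaC04g11510D (0.49) and the assembled transcript CUFF.23860.1 (0.52). Nearest to BnaC07g29330D were BnaC05g09480D (0.34), BnaA09g06030D (0.35) and again CUFF.23860.1 (0.37), while BnaA06g27710D ranked 6.

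The Ole e 1 and extensin family gene BnaC09g09070D had the closest neighbour of all 4, BnaA07g03670D, at a difference of 0.12, with means of 19.1, 4.12 and 0 FPKM in epidermis, cortex and vasculature. BnaA05g16170D (0.21) and BnaA06g16100D (0.23) followed. Of the other 3 genes, *PME3* ranked 60, BnaC07g29330D 130 and BnaA06g27710D 385 in likeness to it. The nearest transcripts have no functional name in the annotation held here, except the *DUF642* gene.

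In WF2, the library that the study set aside, *PME3* and both *DUF642* genes were at 0 FPKM. At its depth, 3 fragments correspond to 1.30, 2.00 and 1.87 FPKM, so that WF1 and WF3 were at least 14.4-fold and 7.08-fold higher for *PME3*, 3.60-fold and 3.60-fold higher for BnaA06g27710D and 4.18-fold and 5.47-fold higher for BnaC07g29330D. The A01 copy of *PME3* was at 0.489 FPKM there, against 79.8 and 84.2 FPKM in WF1 and WF3, and *LTP2* at 29.9 FPKM, against 334 and 335 FPKM. The low values of WF2 therefore extend to genes that the other WF libraries express highly, and a 0 in WF2 is given as listed. Other transcripts went the other way, such as the wall gene BnaA01g03500D, at 138 FPKM in WF2 against 0.296 and 0.112 FPKM in WF1 and WF3. The FPKM of WF2 summed to 1834430 over all transcripts, against 439770 and 491871 in WF1 and WF3. The lower bounds above use the FPKM as deposited and leave out the counting error of WF1 and WF3, and scaling WF2 down to the same sum would raise them.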

How the data were processed

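RNA of 3 epidermis, 2 cortex, 3 vasculature and 3 whole funiculus samples was amplified and sequenced as 50 bp single-end reads. Per the submitters' notes and the study's methods, TopHat2 2.0.13 placed them on the Genoscope *B. napus* genome and Cufflinks 2.2.1 gave FPKM. These FPKM were used as the authors deposited them. All columns were used, and no count test was run. The members and the gene lists were chosen with earlier results of these data known. Gene names and Arabidopsis matches are those of the study's annotation. The RefSeq table held here matched 1 of the 4 genes, and no sequence or coordinate was used.

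Fragments behind a value were recovered from the spacing of low FPKM (80.9% of 3000 low transcripts whole within 0.05 fragments, and all 44 values of the 4 genes within 0.0005), with exact Poisson 95% intervals. Tissues were compared with limma 3.58.1 (lmFit, eBayes with variance trend) under R 4.3.3. The input was log2(FPKM + 1) of the 8 tissue libraries, for 45300 transcripts that averaged 1 FPKM or more in some tissue. A fold change on this scale understates the change of low transcripts. Both steps were tested on simulated data. Between epidermis and cortex limma called 14 of 50 simulated 4-fold changes and 45 of 50 8-fold changes, with 7 calls among 41313 unchanged transcripts. Between epidermis and vasculature it called 25 of 50 and 47 of 50, with 9 such calls. Other steps used Python 3.11.15, numpy 2.4.6, pandas 2.3.3, scipy 1.17.1 and matplotlib 3.10.9.

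Named are the 4 genes, every DUF642, *PME3*, *PME44* and Ole e 1 or extensin transcript of the lists, of the other lists not chosen by tissue each transcript past the threshold (up to 6 per list and direction), up to 4 examples of the study's other epidermal wall genes, the 3 nearest profiles per gene and example markers. Alternatives were a pseudocount of 0.5, no filter, a minimum of 5 FPKM, whole funiculus libraries in the fit, no variance trend, a replicate block, medians, and leaving out each library. Leaving out vasculature libraries in the ratios to the vasculature, and scaling whole funiculus 2 by its summed FPKM, were added after the values were seen.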

Additional observations from a re-analysis of the deposited data

Results flagged for a closer look

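The Ole e 1 and extensin family gene BnaC09g09070D was at 15.6 FPKM in whole funiculus 2, the library left out of every mean and test above. The value rests on 19 fragments, with an exact Poisson 95% interval of 9.37 to 24.3 FPKM for counting error only, above the 2.46 FPKM that 3 fragments correspond to there. Whole funiculus 1 and 3 were at 7.84 and 6.87 FPKM, but the FPKM of whole funiculus 2 summed to 1834430, against 439770 and 491871 in these. Scaled to their mean sum, its value was 3.95 FPKM, below both; this scaling was chosen after seeing the data. *PME3* and both *DUF642* genes were at 0 FPKM in the same library.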

How the results depend on the processing

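Depth and replicate number set the limits here: 1 fragment was worth 0.0966 to 0.238 FPKM for *PME3* in the tissue libraries, the vasculature levels of the 4 genes rest on 0 to 22 fragments per library, and the cortex has 2 libraries. In the comparison of epidermis and cortex, 88 of all transcripts were called, and the count was 44 with a pseudocount of 0.5, 47 without a filter, 163 at a minimum of 5 FPKM, 310 with whole funiculus libraries in the fit, 31 without the variance trend and 8 to 471 on leaving out 1 library (471 without cortex 1, 236 without cortex 2). Among the wall genes not chosen by tissue the count of this comparison was 0, but 2 at a minimum of 5 FPKM (*PME44* and BnaA02g01430D). It was 3 with whole funiculus libraries and at most 1 on leaving out 1 epidermis or vasculature library. For cortex against vasculature the wall gene count of 14 became 7 to 12 on leaving out 1 library and that of all transcripts, 4518, became 2814 to 4469 (2814 without vasculature 3), and 5 of the 14 wall gene calls held in every alternative. For epidermis against vasculature 11 of 15 wall gene calls held in every alternative, and all 15 kept their sign. The ratio of epidermis to cortex means of BnaC07g29330D was 4.41 to 11.2 on leaving out 1 library. With whole funiculus 2 included, the whole funiculus mean was 4.81 FPKM for BnaA06g27710D, 6.01 FPKM for BnaC07g29330D and 10.1 FPKM for BnaC09g09070D. The last was 6.22 FPKM with whole funiculus 2 scaled to the mean summed FPKM of the other 2, an alternative chosen after seeing the data. The causes were not tested.

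Samples with the same replicate number did not deviate together in every pair (correlations of deviations of -0.02, 0.04 and 0.11 between epidermis and vasculature, 0.20 and -0.04 between epidermis and cortex, and -0.07 and -0.10 between cortex and vasculature), so no pairing is assumed. With the number as a replicate block, 14 wall genes were called for epidermis against vasculature, 9 for cortex against vasculature and 0 for epidermis against cortex, and 3 of all transcripts for epidermis against cortex. The calls lost with it were BnaA01g20160D for epidermis against vasculature, and BnaA01g04550D, *GH9B18*, *EXPANSIN-LIKE B1*, BnaA01g27350D and *GALACTURONOSYLTRANSFERASE 14* for cortex against vasculature.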
